A study of Homo sapiens with 5 samples.

Results

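The adhesion G protein-coupled receptors (adhesion GPCRs) were compared between gefitinib-resistant HCC827/GR cells and parental HCC827 cells. Members were taken from the gene expression table by name, as every entry whose symbol begins with ADGR together with CELSR1, CELSR2 and CELSR3, without antisense genes and pseudogenes. Where a symbol had several entries, the one with the highest mean over the 5 libraries was kept. This gave 30 genes of 37181 table entries, and 2 names were dropped by the rule (ADGRD1-AS1 and ADGRE4P). The family was selected on the rise of ADGRL2 in these same libraries, so the values of ADGRL2 are a description and carry no test. ADGRA1 and CELSR3 had no entry under their own names.

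HCC827 is an established human lung adenocarcinoma cell line with an activating EGFR deletion, and gefitinib is an inhibitor of the EGFR kinase. HCC827/GR cells were derived from HCC827 by stepwise gefitinib exposure over more than 6 months. The RNA sequencing values used here are replicates 1, 2 and 3 of HCC827/GR and replicates 2 and 3 of parental HCC827, which the sample labels call HCC827/GS (gefitinib-sensitive). Nothing in the descriptions says that replicates were separate cultures or that HCC827/GR was derived more than once, so the tests measure the spread between these libraries of 1 resistant line. Values are FPKM (fragment numbers scaled to transcript length and library size), and the read depth behind them is unknown. Pearson correlations of log2(FPKM + 1) over the 16189 entries that averaged 0.5 FPKM or more were 0.9132 to 0.9275 within a cell line and 0.8507 to 0.8726 between the lines.

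Adhesion GPCRs carry a long extracellular region of adhesion domains, followed by a GAIN domain in which many members cut themselves, and a membrane-spanning receptor domain. The short stretch exposed by removal of the extracellular fragment can act as a tethered agonist that turns on G proteins. Members bind matrix proteins, proteins on neighbouring cells or soluble ligands, and several are expressed in epithelia, among them the airway and alveolar epithelium.

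Of the 30 genes, 12 reached a mean of 0.5 FPKM and entered the limma comparison on log2(FPKM + 1). The other 18 stayed below it in the mean, with ADGRB2 (mean 0.405 FPKM) nearest outside. ADGRF4 (0.651 FPKM) was nearest inside, followed by CELSR2 (0.746 FPKM). Among the 11 tested members other than ADGRL2, 1 was higher and 4 were lower in HCC827/GR at an adjusted p under 0.05, and 6 had no call. Over all 16189 entries the same comparison called 5.26% higher and 5.71% lower. The members lower in HCC827/GR were ADGRF1, ADGRF4, ADGRG6 and ADGRE5, and the entry higher was one named ADGRL3 that holds no annotated transcript. The median log2 fold change was -0.01 over the 11 members and 0.00143 over all entries tested. ADGRF1 and ADGRF4 passed the level filter only through the HCC827 libraries, so these counts and the median are descriptions of the members that passed.

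**Figure D1:**
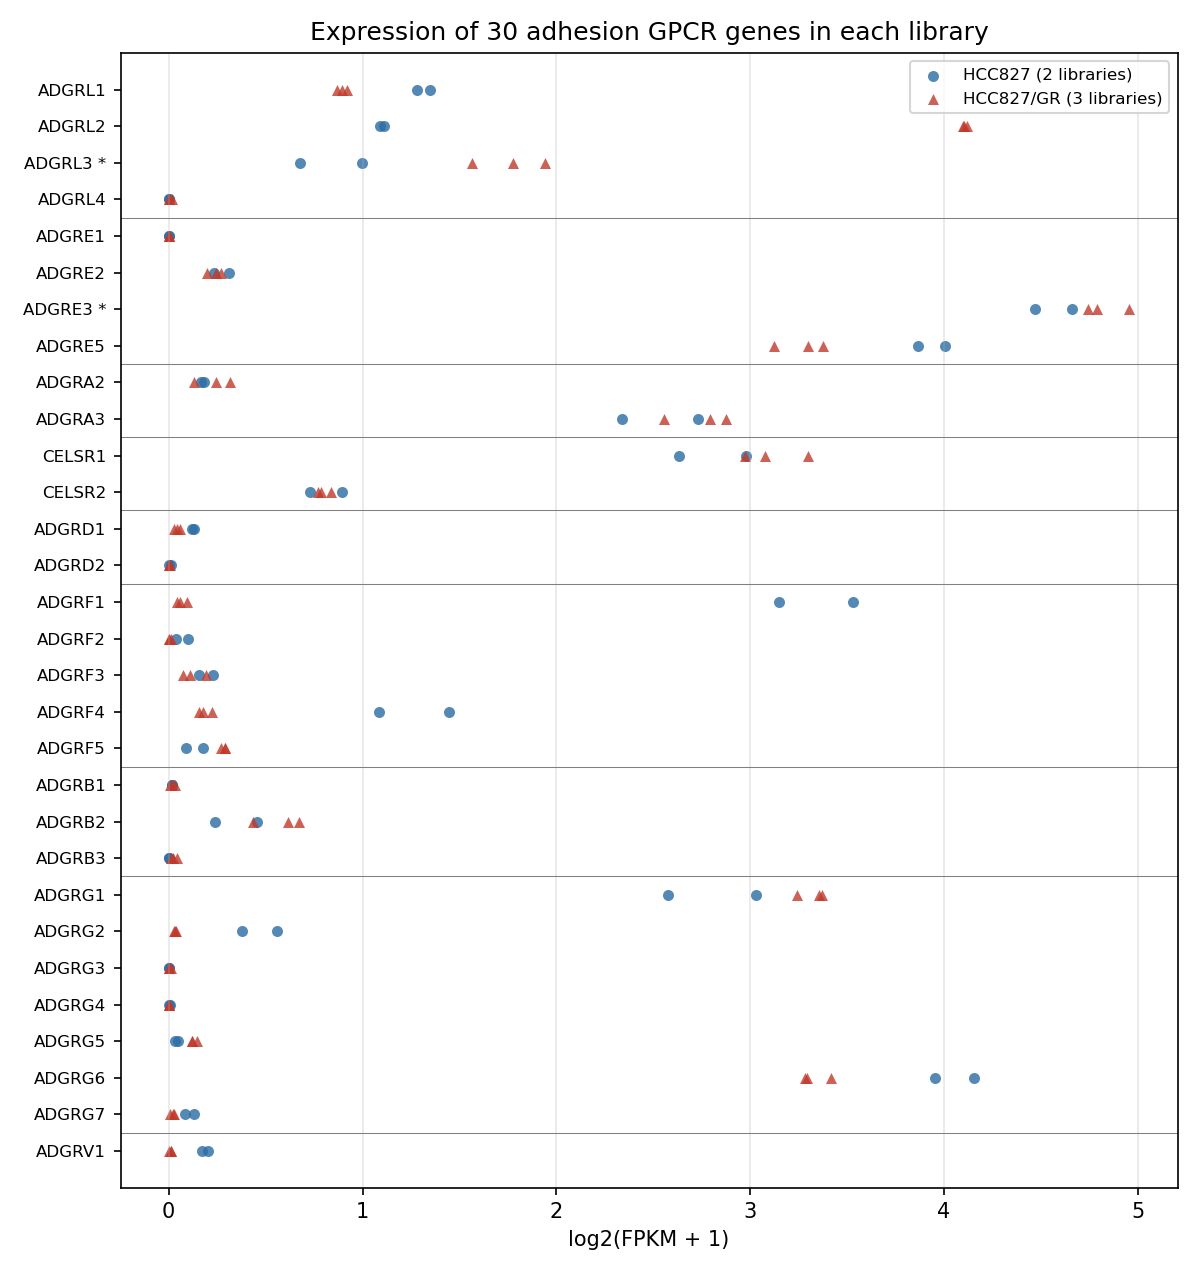
Expression of the 30 adhesion GPCR genes as log2(FPKM + 1) on the horizontal axis, with 1 point per library (circles, HCC827 replicates 2 and 3; triangles, HCC827/GR replicates 1 to 3), and horizontal lines between subfamilies. An asterisk marks an entry without annotated transcripts. The triangles of ADGRL2 lie far to the right of its circles, and those of ADGRF1 far to the left.

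The DNA upstream of ADGRL2, ADGRF1 and ADGRF4 is shown because these genes had the largest differences among the 12 members. The windows are 250 bases before a RefSeq transcription start on GRCh38.p14, in the direction of transcription, with each CpG dinucleotide in capitals. RefSeq windows were found for 19 of the 30 members. For ADGRL2, 2 of its start sites are given, at which 5 and 4 of the 16 annotated transcripts of its entry begin within 100 bases. The second lies inside the span of the longer ADGRL2 transcripts.
ADGRL2 upstream start, chr1:81305882-81306131, plus strand: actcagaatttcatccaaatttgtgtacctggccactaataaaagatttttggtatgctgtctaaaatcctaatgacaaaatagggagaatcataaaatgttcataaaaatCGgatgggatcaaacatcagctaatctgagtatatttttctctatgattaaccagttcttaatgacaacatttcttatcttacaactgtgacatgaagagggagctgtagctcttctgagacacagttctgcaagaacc
ADGRL2 internal start, chr1:81800126-81800375, plus strand: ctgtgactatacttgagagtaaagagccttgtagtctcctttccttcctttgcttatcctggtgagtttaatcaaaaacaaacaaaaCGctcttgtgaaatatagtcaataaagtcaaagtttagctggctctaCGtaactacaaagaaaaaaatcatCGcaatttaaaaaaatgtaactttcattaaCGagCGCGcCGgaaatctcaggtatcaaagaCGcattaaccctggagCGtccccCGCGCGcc
ADGRF1 start, chr6:47042333-47042582, minus strand: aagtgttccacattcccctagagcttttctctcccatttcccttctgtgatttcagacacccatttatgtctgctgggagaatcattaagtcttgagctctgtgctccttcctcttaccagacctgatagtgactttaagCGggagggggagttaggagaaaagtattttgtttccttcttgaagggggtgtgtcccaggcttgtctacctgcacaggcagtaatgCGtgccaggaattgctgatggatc
ADGRF4 start, chr6:47698330-47698579, plus strand: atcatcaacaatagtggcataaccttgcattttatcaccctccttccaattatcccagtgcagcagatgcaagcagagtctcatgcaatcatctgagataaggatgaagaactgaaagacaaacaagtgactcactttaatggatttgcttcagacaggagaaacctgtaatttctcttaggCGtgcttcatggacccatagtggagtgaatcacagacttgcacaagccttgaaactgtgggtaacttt

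The upstream ADGRL2 window held 1 CpG and the internal one 12, against a median of 11 (quartiles 3 and 23) over 35116 windows of the same length in all genes. The ADGRF1 window held 2 CpG and the ADGRF4 window 1. Fewer CpG were found in 6.06%, 51.5%, 14.7% and 6.06% of all windows for these 4 windows in the order shown. The AP-1 type motif TGANTCA, which reads the same on both strands, occurred 2 times in the ADGRF4 window and in none of the other 3, and 6.57% of all windows held it. CAGGTG or its reverse complement CACCTG, the E-box form read by ZEB and SNAIL repressors, occurred in none of the 4 windows and in 17.5% of all windows. The table does not separate transcripts by start site, so which of these starts was used was not measured.

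The latrophilins ADGRL1, ADGRL2 and ADGRL3 are receptors for teneurins and FLRT proteins on neighbouring cells, and are known best from synapses. ADGRL2 (chromosome 1, 81306160 to 81992436 on GRCh38) was listed at 16.1, 16.4 and 16.2 FPKM in HCC827/GR replicates 1, 2 and 3. In HCC827 replicates 2 and 3 it was listed at 1.16 and 1.13 FPKM. The mean was 16.2 ± 0.140 FPKM (SD, n = 3) against 1.14 ± 0.0216 FPKM (SD, n = 2), a ratio of 14.2, and the log2 fold change on the log2(FPKM + 1) scale was 3.01 (SE 0.081). The entry joins 27 transcripts, 16 of them annotated.

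ADGRL1, on chromosome 19, stood at 0.822, 0.895 and 0.860 FPKM in HCC827/GR and at 1.54 and 1.43 FPKM in HCC827. All 3 resistant libraries were below both parental ones, but the difference had no call (log2 fold change -0.42, SE 0.11, limma adjusted p = 0.0769). The entry named ADGRL3 was listed at 2.84, 1.96 and 2.43 FPKM in HCC827/GR and at 0.597 and 0.997 FPKM in HCC827, and was called higher (log2 fold change 0.93, SE 0.17, limma adjusted p = 0.0382). It consists of 1 transcript assembled from these reads and of no annotated ADGRL3 transcript, so its values cannot be taken as ADGRL3 mRNA. Its call was lost when any of the 5 libraries was left out (adjusted p 0.0679 to 0.157, and 0.0331 to 0.302 over all alternatives). ADGRL4, an endothelial receptor, was listed at 0 in 4 libraries and at 0.0100 FPKM in HCC827/GR replicate 2.

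Genes beside ADGRL2 on chromosome 1 were looked up as a local comparison. Of the 5 nearest tested protein-coding genes on each side, log2 fold changes ranged from -1.42 (IFI44) to 1.20 (TTLL7, which adds glutamate chains to tubulin). TTLL7 was the 1 gene of these 10 with a call (limma adjusted p = 0.0210). Over all entries tested, 5.26% were called higher and 5.71% lower. ADGRL2 differed by more than each of these neighbours. Because it was chosen for its rise and they were not, this is a description only and was not tested.

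Subfamily VI holds ADGRF1 to ADGRF5. On chromosome 6, ADGRF5, ADGRF1, ADGRF2 and ADGRF4 lie between positions 46852512 and 47722021 of GRCh38. ADGRF1 (GPR110), a receptor of epithelial and neural tissue, was at 0.0669, 0.0299 and 0.0398 FPKM in HCC827/GR and at 10.5 and 7.87 FPKM in HCC827. The mean was 0.0455 ± 0.0192 FPKM (SD, n = 3) against 9.20 ± 1.88 FPKM (SD, n = 2). The HCC827 mean was 202 times the HCC827/GR mean, a ratio that rests on resistant values near the bottom of the scale. ADGRF1 was lower in HCC827/GR (log2 fold change -3.27, SE 0.15, limma adjusted p = 0.00208), and kept its call when any library was left out (adjusted p 0.0196 to 0.0256). Because it passed the level filter only through HCC827, it was also fitted with no filter, where its adjusted p was 0.00881. It had no call with the Ballgown model (adjusted p = 0.143), and its adjusted p ranged from 0.00178 to 0.143 over all alternatives.

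ADGRF4 (GPR115), known from stratified epithelium, had 0.114, 0.130 and 0.168 FPKM in HCC827/GR. In HCC827 it had 1.72 and 1.12 FPKM. Every resistant library was below both parental libraries, and the HCC827 mean was 10.3 times the HCC827/GR mean. ADGRF4 was lower in HCC827/GR (log2 fold change -1.08, SE 0.17, limma adjusted p = 0.0251). It passed the level filter only through HCC827, and with no filter it had no call (adjusted p = 0.0528). Its call was kept without HCC827 replicate 3 (adjusted p = 0.0332) and lost without any other library (adjusted p 0.0562 to 0.0806), against 0.0175 to 0.231 over all alternatives.

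The other 3 members of the subfamily were below 0.5 FPKM. ADGRF5 (GPR116), which restrains surfactant secretion in alveolar type II cells, was at 0.225, 0.222 and 0.205 FPKM in HCC827/GR and at 0.130 and 0.0641 FPKM in HCC827, so its values lay in the opposite order to those of ADGRF1 and ADGRF4. ADGRF2, which RefSeq names as a pseudogene and GENCODE 29 as protein-coding, did not exceed 0.0713 FPKM. ADGRF3 on chromosome 2 overlapped between the groups at 0.0518 to 0.173 FPKM.

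The loci around this group were also read gene by gene, a comparison chosen after the values were seen. The tested genes between ADGRF1 and ADGRF4 were TNFRSF21, a death receptor (log2 fold change -0.17, adjusted p = 0.673), and CD2AP, an adaptor of the actin cytoskeleton (-0.65, adjusted p = 0.326), and limma called neither. On the other side of ADGRF1, the nearest tested genes were SLC25A27, ENPP5, ENPP4, RUNX2 and SUPT3H. Of these limma called only RUNX2, a transcription factor, which was higher in HCC827/GR (0.80, adjusted p = 0.0379). Over all entries 5.26% were called higher and 5.71% lower.

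**Figure D2:**
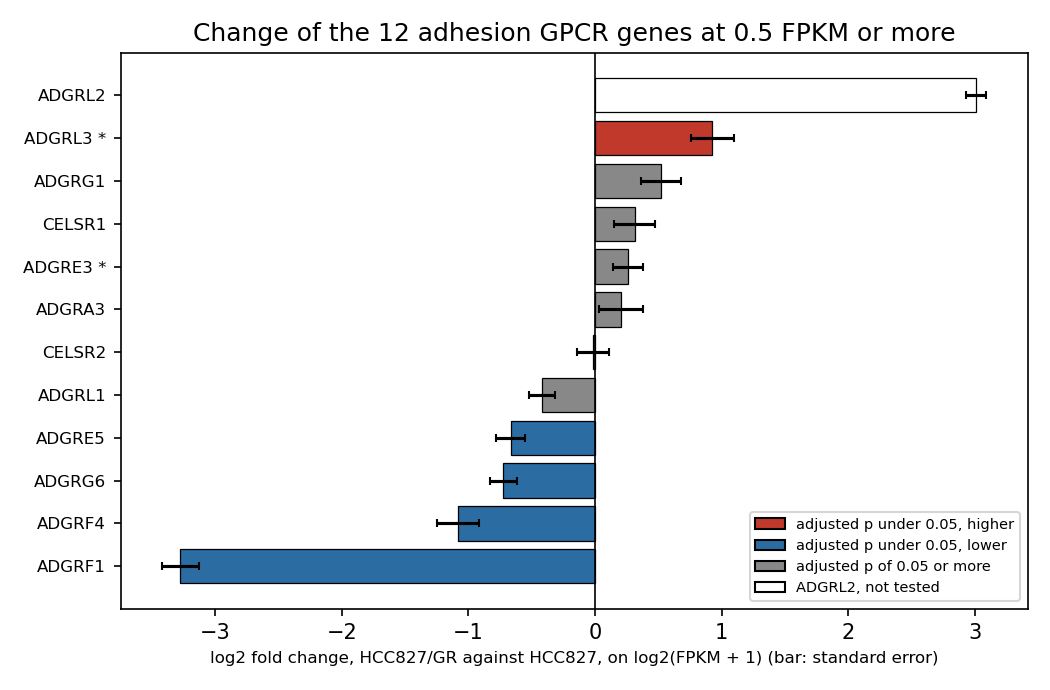
Log2 fold change of the 12 members at 0.5 FPKM or more, HCC827/GR against HCC827 on log2(FPKM + 1), with bars at the standard error. Filled colours mark limma adjusted p under 0.05 (red higher, blue lower), grey marks no call, white marks the untested ADGRL2, and an asterisk marks an entry without annotated transcripts. ADGRL2 at 3.01 and ADGRF1 at -3.27 stand at the opposite ends.

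ADGRG6 (GPR126) of subfamily VIII binds type IV collagen and is required for Schwann cell myelination. It was listed at 8.82, 9.67 and 8.73 FPKM in HCC827/GR and at 14.5 and 16.8 FPKM in HCC827. The groups did not overlap, with means of 9.07 ± 0.518 FPKM (SD, n = 3) and 15.7 ± 1.63 FPKM (SD, n = 2), and ADGRG6 was lower in HCC827/GR (log2 fold change -0.72, SE 0.11, limma adjusted p = 0.0235). The call was lost when any of the 5 libraries was left out (adjusted p 0.0613 to 0.0867, and 0.0174 to 0.226 over all alternatives).

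ADGRG1 (GPR56), a collagen III receptor of the developing cortex that is also found in many carcinomas, was at 8.45, 9.24 and 9.35 FPKM in HCC827/GR and at 7.16 and 4.97 FPKM in HCC827. The resistant libraries were all above the parental ones, but the difference had no call (log2 fold change 0.52, SE 0.16, limma adjusted p = 0.122). ADGRG2 (GPR64), a receptor of the epididymis, was below the filter at 0.0193, 0.0218 and 0.0273 FPKM in HCC827/GR and 0.302 and 0.474 FPKM in HCC827. Its ratio of 17.0 in favour of HCC827 rests on resistant values near the bottom of the scale. ADGRG7, an intestinal receptor, was at 0.00451 to 0.0190 FPKM in HCC827/GR and at 0.0616 and 0.0931 FPKM in HCC827.

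ADGRG5, a leukocyte receptor next to ADGRG1 and ADGRG3 on chromosome 16, was higher in value in HCC827/GR, at 0.0872 to 0.107 FPKM against 0.0227 and 0.0338 FPKM. The neutrophil receptor ADGRG3 did not exceed 0.00981 FPKM, and ADGRG4 was listed at 0 in every library except HCC827 replicate 2 (0.00370 FPKM).

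ADGRE5 (CD97) of subfamily II binds CD55 and is carried by leukocytes and many carcinoma cells. It was listed at 8.85, 7.72 and 9.39 FPKM in HCC827/GR and at 13.6 and 15.1 FPKM in HCC827. The means of 8.66 ± 0.854 FPKM (SD, n = 3) and 14.3 ± 1.04 FPKM (SD, n = 2) gave a log2 fold change of -0.67 (SE 0.12), and ADGRE5 was lower in HCC827/GR (limma adjusted p = 0.0341). The call was lost when any of the 5 libraries was left out (adjusted p 0.0646 to 0.129, and 0.0232 to 0.253 over all alternatives).

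ADGRE2, a myeloid receptor whose EGF repeats are nearly identical to those of ADGRE5, overlapped between the groups at 0.146 to 0.242 FPKM. Reads from the shared repeats may have been divided between both genes, which was not tested. ADGRE1 was listed at 0 in all 5 libraries. The entry named ADGRE3 had the highest values of the 30, at 26.7, 25.7 and 30.1 FPKM in HCC827/GR and at 24.3 and 21.2 FPKM in HCC827, with no call (log2 fold change 0.26, SE 0.12, limma adjusted p = 0.242). Like the ADGRL3 entry it holds 1 assembled transcript and no annotated one, so it cannot be taken as mRNA of this myeloid receptor. Without these entries 9 tested members remained, with 0 higher and 4 lower by limma and a median log2 fold change of -0.42. Limma called 5.26% of all entries tested higher and 5.71% lower. The 4 include ADGRF1 and ADGRF4, which passed the level filter only through HCC827. This count and median therefore describe the members that passed. At an unadjusted p under 0.05, 1 of the 9 was higher and 5 were lower, against 13.4% and 13.8% of all entries tested. The Ballgown model called 0 members in either direction, and over all 16189 entries it called only 4 higher and 9 lower.

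CELSR1 and CELSR2 are the seven-pass cadherins of planar cell polarity, which aligns cells within the plane of an epithelium. CELSR1 was at 7.44, 6.86 and 8.84 FPKM in HCC827/GR and at 6.87 and 5.21 FPKM in HCC827 (log2 fold change 0.31, SE 0.16, limma adjusted p = 0.298). A second CELSR1 entry with 1 assembled transcript lay between 3.73 and 4.48 FPKM in all 5 libraries. CELSR2 was at 0.787, 0.721 and 0.706 FPKM against 0.858 and 0.658 FPKM, with a log2 fold change of -0.01 (SE 0.13, limma adjusted p = 0.958), whose sign turned positive after quantile normalization (0.0596). Both genes overlapped between the groups. CELSR3 transcripts were contained in an entry named for the microRNA gene MIR4793, outside the naming rule, at 2.32, 1.76 and 1.76 FPKM in HCC827/GR and 3.29 and 2.88 FPKM in HCC827.

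ADGRA3 (GPR125) was at 5.92, 4.88 and 6.34 FPKM in HCC827/GR and at 5.64 and 4.05 FPKM in HCC827, with overlapping groups and no call (log2 fold change 0.21, SE 0.17, limma adjusted p = 0.509). ADGRA2 (GPR124), a co-receptor for WNT7 in brain vessels, overlapped at 0.0928 to 0.246 FPKM. Pseudogene copies of ADGRA3 and ADGRF5 are annotated, and reads shared with them were not separated here.

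The brain angiogenesis inhibitor group and the remaining receptors were low. ADGRB2 was at 0.592, 0.353 and 0.534 FPKM in HCC827/GR and at 0.179 and 0.369 FPKM in HCC827, and overlapped. ADGRB1, which binds apoptotic cells, did not exceed 0.0233 FPKM. ADGRB3, a receptor for C1q-like proteins, was at 0.00750 to 0.0284 FPKM in HCC827/GR and listed at 0 in both HCC827 libraries.

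ADGRV1, the very large receptor of hair cell stereocilia, was at 0.00931, 0.00180 and 0.00673 FPKM in HCC827/GR and at 0.151 and 0.128 FPKM in HCC827. The ratio of 23.4 in favour of HCC827 rests on resistant values near the bottom of the scale. ADGRD1 was at 0.0185 to 0.0398 FPKM in HCC827/GR and at 0.0866 and 0.0943 FPKM in HCC827. An antisense gene overlaps its locus and the sources do not state stranded counting, so reads of the pair may be mixed. ADGRD2 did not exceed 0.00757 FPKM.

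Separation between the groups was also counted without a model. Of the 11 members tested other than ADGRL2, all HCC827/GR values lay above both HCC827 values in 3 and below them in 5, and 3 overlapped. The same held for 22.8% (above) and 23.4% (below) of all entries at 0.5 FPKM or more. Of the 18 members under 0.5 FPKM, 3 lay above (ADGRB3, ADGRF5 and ADGRG5), 5 lay below (ADGRD1, ADGRF2, ADGRG2, ADGRG7 and ADGRV1) and 10 overlapped, ADGRE1 with 0 throughout among them. Over entries under 0.5 FPKM that were not at 0 in all libraries, 8.74% lay above and 14.8% below. The number of fragments behind such values is unknown, and 7 of the 18 were listed at 0 in at least 1 library.

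The summed FPKM of the members with annotated transcripts overlapped between the lines, at 58.9, 57.6 and 62.1 in HCC827/GR and 65.1 and 60.0 in HCC827. Its make-up differed. ADGRL2 gave 27.4%, 28.5% and 26.0% of the family's FPKM in HCC827/GR and 1.78% and 1.88% in HCC827. ADGRF1 gave 16.2% and 13.1% in HCC827 and at most 0.11% in HCC827/GR. These shares restate the values above on a common base and were not tested.

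By level, among entries with annotated transcripts and so without the ADGRE3 entry, ADGRL2 stood first in HCC827/GR, with its lowest library (16.1 FPKM) above the highest of ADGRG6 (9.67 FPKM). ADGRG6, ADGRG1, ADGRE5 and CELSR1 followed at means of 9.07, 9.01, 8.66 and 7.71 FPKM, and each overlapped the next. In HCC827 the order was ADGRG6 and ADGRE5 (15.7 and 14.3 FPKM, overlapping), then ADGRF1 (9.20 FPKM), then ADGRG1 and CELSR1 (6.06 and 6.04 FPKM, overlapping). ADGRA3 came next in both lines, at 5.71 and 4.85 FPKM. FPKM is scaled by length, which allows this order between genes, within the uncertainty of the assembled transcripts.

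**Figure D3:**
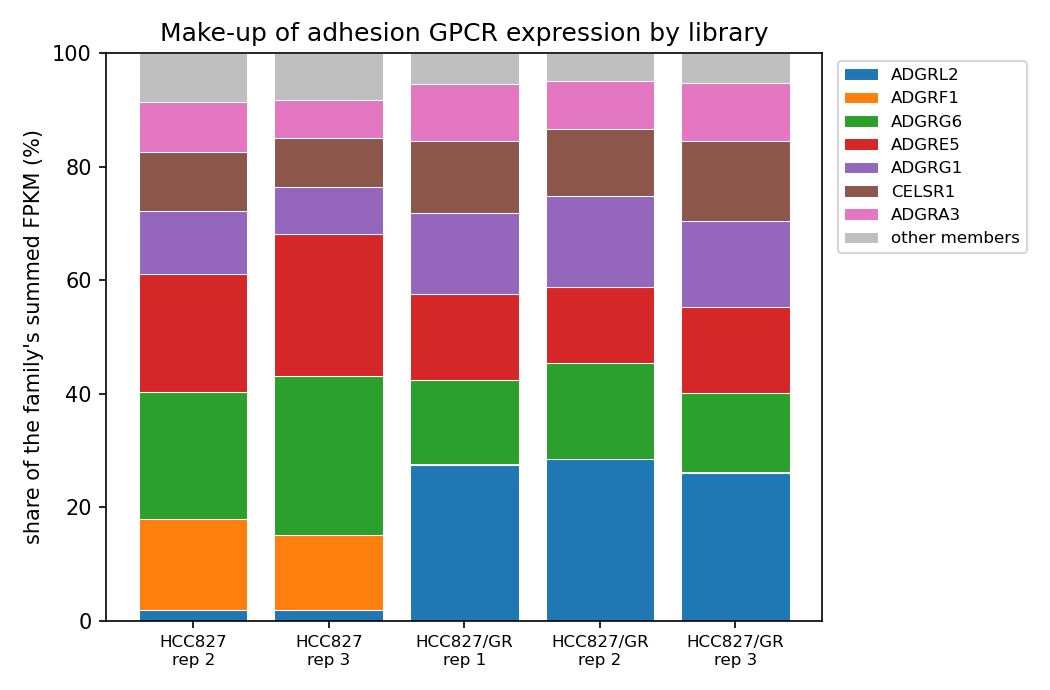
Share of the family's summed FPKM in percent on the vertical axis, over members with annotated transcripts, as 1 stacked bar per library. ADGRL2 takes 26.0% to 28.5% of the HCC827/GR bars and 1.78% to 1.88% of the HCC827 bars, in which ADGRF1 takes 13.1% to 16.2%.

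Ligands, G proteins and pathway partners were read from 4 lists of 72 genes, of which 41 passed the filter. Of these 41, 5 were higher, 0 were lower and 36 had no call by limma, with a median log2 fold change of 0.08 against 0.00143 over all entries. The 5 include UNC5A, which passed the filter only through the HCC827/GR libraries, so these counts describe the genes that passed. Over all entries 5.26% were called higher and 5.71% lower. At an unadjusted p under 0.05, 12 were higher and 6 lower, against 13.4% and 13.8% of all entries. The Ballgown model called 0 of the 41 in either direction, and over all 16189 entries it called only 4 higher and 9 lower.

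Among the 11 ligands and co-receptors of latrophilins, only FLRT3 and UNC5A passed the filter. UNC5A, a netrin receptor of a family that also binds FLRT proteins, was at 1.37, 1.21 and 1.52 FPKM in HCC827/GR and at 0.113 and 0.103 FPKM in HCC827. It was higher in HCC827/GR (log2 fold change 1.09, SE 0.13, limma adjusted p = 0.0133). UNC5A passed the level filter only through the HCC827/GR libraries, and its adjusted p was 0.0396 with no filter. The call was lost without HCC827/GR replicate 1 (adjusted p = 0.0588) and without HCC827 replicate 2 (0.0594) or replicate 3 (0.0558). FLRT3, a direct latrophilin ligand, was at 2.40, 3.21 and 0.575 FPKM against 7.89 and 4.64 FPKM, with no call (log2 fold change -1.33, SE 0.49, limma adjusted p = 0.170).

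The teneurin TENM3 was below the filter at 0.458, 0.571 and 0.400 FPKM in HCC827/GR, and at 0.00622 and 0.0105 FPKM in HCC827. TENM2 was at 0.0749 to 0.179 FPKM against 0.0303 and 0.0703 FPKM. TENM1, TENM4 and UNC5B did not exceed 0.0353 FPKM in any library. UNC5C was at 0.0905 to 0.144 FPKM in HCC827/GR and at 0.357 and 0.479 FPKM in HCC827, and FLRT1 overlapped at 0.0899 to 0.485 FPKM. An entry named FLRT2 was listed at 0 in HCC827 replicate 2 and at 1.43 FPKM in replicate 3, against 0.231 to 0.292 FPKM in HCC827/GR. It is the highest in mean of 3 entries of that name and holds no annotated transcript. Its values therefore cannot be taken as FLRT2 mRNA. UNC5D had no entry.

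Among the 22 ligands and partners of other adhesion GPCRs, 8 were tested, 2 were higher and 6 had no call. Of all entries, 5.26% were called higher and 5.71% lower. COL4A1, a type IV collagen chain of the basement membrane and of the ligand of ADGRG6, was at 26.2, 25.2 and 27.7 FPKM in HCC827/GR and at 2.13 and 2.54 FPKM in HCC827 (log2 fold change 3.04, SE 0.10, limma adjusted p = 0.00157). COL4A1 is among the genes that the study listed from these same samples, so its direction is not independent evidence. COL4A2, its partner chain, was at 25.1, 23.0 and 24.2 FPKM against 5.67 and 6.33 FPKM (log2 fold change 1.84, SE 0.10, limma adjusted p = 0.00248). Both collagens kept their calls without each library in turn (adjusted p 0.0171 to 0.0256). CD55, the ligand of ADGRE5, had no entry of its own name and was not read.

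Of the 17 tested G proteins and effectors, 2 were higher and 15 had no call, against 5.26% called higher and 5.71% lower over all entries. GNAI1, an inhibitory G protein alpha subunit, was at 9.44, 11.1 and 11.2 FPKM in HCC827/GR and 5.91 and 6.09 FPKM in HCC827 (log2 fold change 0.72, SE 0.11, limma adjusted p = 0.0245). ARHGEF1, a RhoA exchange factor downstream of G12 and G13, was at 5.86, 4.89 and 5.07 FPKM against 3.19 and 2.97 FPKM (log2 fold change 0.62, SE 0.11, limma adjusted p = 0.0338). Both calls were lost when any of the 5 libraries was left out (adjusted p 0.0518 to 0.109 for GNAI1 and 0.0792 to 0.131 for ARHGEF1). Of the 14 tested planar cell polarity partners of CELSR proteins, limma called 0, while 1 was higher and 4 were lower at an unadjusted p under 0.05, which 13.4% and 13.8% of all entries reached in these directions.

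**Figure D4:**
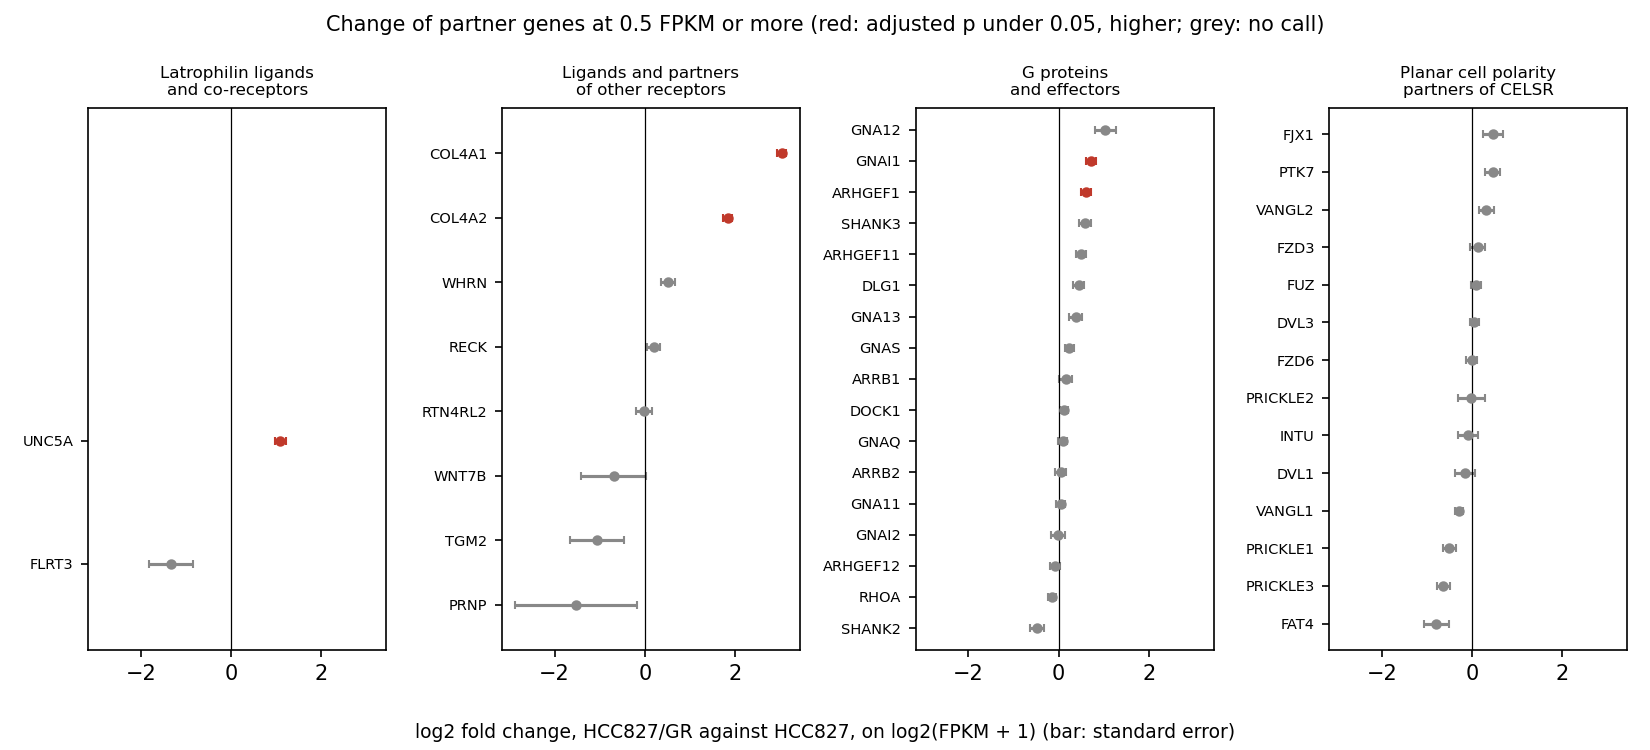
Log2 fold change of the 41 tested partner genes in 4 panels by list, HCC827/GR against HCC827 on log2(FPKM + 1), with bars at the standard error. Red points have a limma adjusted p under 0.05 and grey points have no call. The called genes are UNC5A, COL4A1, COL4A2, GNAI1 and ARHGEF1, all to the right of 0.

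Markers of the cell type moved between the lines beside these genes. Of 9 lung adenocarcinoma epithelial markers, 6 were tested, 5 were lower in HCC827/GR (EPCAM, CDH1, NKX2-1, KRT19 and KRT18) and KRT8 had no call. Limma called 5.26% of all entries tested higher and 5.71% lower. Among those entries the Ballgown model called only 9 lower and the replicate block 0. The summed level of the 7 with an entry was 443 to 574 FPKM in HCC827/GR and 1068 to 1186 FPKM in HCC827. The adhesion molecule EPCAM was at 7.32, 10.8 and 8.53 FPKM against 86.9 and 72.6 FPKM (log2 fold change -3.04, SE 0.19, limma adjusted p = 0.00349). ADGRF1 and ADGRF4 fell together with these markers, and the part of the epithelial change in their values was not tested.

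Markers of other cell types were low. The 5 leukocyte markers with an entry (of 6) summed to 0.498 to 0.641 FPKM in HCC827/GR and to 0.971 to 0.983 FPKM in HCC827, with PTPRC (CD45) at most 0.0228 FPKM. The 5 fibroblast markers summed to 0.754 to 1.15 FPKM and 0.667 to 0.885 FPKM, and COL1A1 had no call. The 5 endothelial markers summed to 0.0672 to 0.108 FPKM in HCC827/GR and to 3.42 and 4.44 FPKM in HCC827. This last sum came mostly from a PECAM1 entry without annotated transcripts, the highest in mean of 10 entries of that name. It was listed at 0 in every HCC827/GR library and at 4.34 and 3.32 FPKM in HCC827. It was called lower in HCC827/GR (log2 fold change -2.26, SE 0.14, limma adjusted p = 0.00390), but passed the level filter only through HCC827. CDH5, which defines endothelium, did not exceed 0.0749 FPKM.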

How the data were processed

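Cells of the line HCC827 and of its gefitinib-resistant derivative HCC827/GR were sequenced. The authors deposited 1 FPKM value per gene entry and library, made with StringTie and Ballgown after Cutadapt, FastQC, Bowtie2 and TopHat2. The submitters' processing notes name hg18, and the table gives no coordinates, so positions were taken from GENCODE 29 (GRCh38) through transcript identifiers, of which 135164 of 135299 were found. The study describes rRNA-depleted paired-end libraries, whereas the labels describe small-RNA single-end libraries, and the values do not settle which protocol was used. FPKM holds no read counts, so depth is unknown, no counting interval could be given, and no count model was used. One FPKM column that matched no sample was left out (1 column).

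Values were compared as log2(FPKM + 1) with limma 3.58.1 in R 4.3.3 (lmFit, eBayes with a trend, two-sided) over the 16189 entries averaging 0.5 FPKM or more, with Benjamini-Hochberg adjustment over all of them and a call at adjusted p under 0.05. A fold change on this scale understates low genes. The design was 3 HCC827/GR against 2 HCC827 libraries without a covariate. The steps were tested on simulated data.

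Every member was accounted for by subfamily, every latrophilin ligand was named, of the other partner lists only called genes (at most 10 each) were named, and the 5 neighbours on each side of ADGRL2 were given by range. The members and lists were chosen with earlier results of these data known. Promoter windows were from RefSeq (GRCh38.p14). Python 3.11.15, numpy 2.4.6, pandas 2.3.3 and matplotlib 3.10.9 were used. Alternatives were median-ratio and quantile scaling, a pseudocount of 0.1, all entries not at 0 throughout, entries averaging 1 FPKM or more, limma without the trend, Ballgown's model, the replicate number as a block, the study's thresholds, summed entries of a symbol, and each library left out in turn.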

Additional observations from a re-analysis of the deposited data

How the results depend on the processing

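With 2 and 3 libraries and no read counts, each of the 5 members with a call at an adjusted p under 0.05 lost it under at least 1 alternative, the other 6 had no call under any, and low FPKM values could not be given a counting error. The main comparison gave 1 member higher, 4 lower, 5 partner genes higher and 0 lower. The count of members higher was 0 without a filter, with the Ballgown model and with the replicate block. It was also 0 with the study's thresholds and when any 1 HCC827/GR library was left out. The study's thresholds were applied as doubling or halving on log2(FPKM + 1) with an unadjusted limma p under 0.05. On that scale the ADGRL3 entry (log2 fold change 0.93) fell short, though its ratio of mean FPKM was 3.03. The count of members lower was 0 with the Ballgown model and the replicate block and 2 with the study's thresholds. It was 1 when any 1 HCC827/GR library was left out. Without a filter 28 members were tested and 3 were lower. There ADGRE5 (limma adjusted p = 0.0552) and ADGRF4 (0.0528) lost their calls, so the 3 include a member under 0.5 FPKM. Partner genes higher numbered 0 with the Ballgown model and the replicate block and 2 to 3 with 1 library left out. Partner genes lower numbered 1 with entries of a symbol summed (PRICKLE1) and 1 with the study's thresholds (FLRT3). Where 1 HCC827 library was left, it was assumed to vary like the HCC827/GR libraries. Over all entries the Ballgown model called 4 higher and 9 lower, the replicate block 0 and 0 (with 3560 at an unadjusted p under 0.05), and leaving out a library 202 to 485 higher and 287 to 477 lower, against 851 and 924 in the main comparison. The causes were not tested.

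The log2 fold change of ADGRL2 was 3.01, with 3.72 at a pseudocount of 0.1 and 3.05 after quantile normalization. The median over the members tested was -0.01, and 0.21 with a mean of at least 1 FPKM, where 9 members were left. CELSR2 changed from -0.01 to 0.0596 with quantile normalization, to 0.0288 with the Ballgown model, and to between -0.0960 (without HCC827 replicate 3) and 0.0681 (without HCC827 replicate 2) with 1 library left out. Under every alternative that could be computed, ADGRF1, ADGRF4, ADGRG6, ADGRE5 and ADGRL1 stayed lower and ADGRL2 and the ADGRL3 entry higher in HCC827/GR. The difference between replicates 2 and 3 correlated at 0.0274 between the lines over entries. This is 1 difference per line, so it cannot show whether libraries of the same number were handled together. With the replicate block the called members had limma adjusted p values of 0.120 (ADGRF1) to 0.168 (ADGRG6).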
